A study of Mus musculus with 2 samples.

Results

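Iron and metal handling was followed through 10 genes picked by name for their roles: the metallothioneins *Mt1* and *Mt2*, the ferritin chains *Fth1* and *Ftl1*, the transferrin receptor *Tfrc*, the iron and zinc transporters *Slc11a2*, *Slc40a1*, *Slc39a14* and *Slc30a1*, and the iron regulatory protein gene *Ireb2*. All 10 had at least 1 tag in either library, among 14283 genes that did. The study set mouse cells labelled as type B spermatogonia against cells labelled as primary spermatocytes by digital gene expression (DGE) tag profiling, in which *Nla*III cuts the cDNA of each polyadenylated transcript at CATG and *Mme*I releases a tag of 21 bases, CATG and the next 17. GC-1spg is a line made from type B spermatogonia of a mouse aged 10 days with the plasmid pSV3-neo. GC-2spd (ts) is a line made from spermatocytes of a mouse aged 6 weeks with the SV40 large T antigen. Both lines are therefore immortalised, both were grown in DMEM with 10% FBS, buffered with 1.5 g/L bicarbonate, and the labels give no treatment for either. The copies added up to 5072149 clean tags for GC-1spg and 4726808 for GC-2spd (ts), so that 1 copy was worth 0.197 and 0.212 TPM (copies per 1000000 clean tags). There was 1 library per line: no difference has a replicate check, every test compares these 2 libraries and not the lines, and all intervals, which are exact at 95%, cover counting error only. Single copy tags were absent from the files, so a gene that was not listed may still have been sampled.

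Cells take up iron bound to transferrin through the transferrin receptor, or as the free ion through transporters, store it inside ferritin shells built from heavy and light chains, and release it through ferroportin. When iron is scarce, the iron regulatory proteins bind a hairpin called the iron responsive element (IRE), which blocks translation of ferritin mRNA and slows the decay of transferrin receptor mRNA. Zinc is buffered by the metallothioneins, small cysteine-rich proteins, and the zinc-sensing factor MTF1 turns on their genes and that of the zinc exporter through metal response elements in the promoter. In the testis, Sertoli cells secrete transferrin and pass iron on to the germ cells.

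The germ cell identity of both lines was checked on 12 markers. Only *Spo11* was listed, with 2 copies in GC-1spg, and *Ddx4*, *Dazl*, *Sycp3* and the others were listed in neither library. Of 6 fibroblast markers, 5 were listed in both libraries, with a summed level of 2673 TPM in GC-1spg against 1002 TPM in GC-2spd (ts). *Col1a1* at 2063 and 513 TPM and *Fn1* at 464 and 256 TPM made up most of the sum, *Pdgfra* stood at 16.8 and 15.7 TPM, and *Col1a2* at 119 and 192 TPM and *Col3a1* at 9.86 and 25.4 TPM were at larger values in GC-2spd (ts). Of 5 Sertoli cell markers, 3 were listed in GC-1spg against 1 in GC-2spd (ts), summing to 129 and 9.73 TPM, of which *Wt1* was 122 TPM and not listed, *Amh* 0.986 TPM and not listed, and *Sox9* 5.72 and 9.73 TPM. The Leydig cell list was near 0 in both (0.789 and 1.06 TPM), and the peritubular myoid list stood at 12.03 and 119 TPM. *Acta2* at 9.86 and 117 TPM made up most of the myoid sum. *Des* went the other way at 2.17 and 0.846 TPM, and *Myh11* was listed in GC-2spd (ts) alone, at 0.423 TPM. These marker levels differed between the libraries, in both directions within a list, and their part in the results below was not tested. A smaller number of expressing cells and less RNA per cell cannot be told apart in such libraries.

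Tags that carried the values are shown 5′ to 3′, with the CATG cut site in capitals and positions in GRCm38.

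*Mt1*, chr8:94179797-94179817, + strand: CATGctgtcttctttctcctc
*Mt2*, chr8:94173529-94173549, + strand: CATGtaactgacaataaaagc
*Fth1*, last CATG, chr19:9984994-9985014, + strand: CATGtcaggctgccttcatct
*Fth1*, next CATG, chr19:9984990-9985010, + strand: CATGcatgtcaggctgccttc
*Tfrc*, chr16:32632640-32632660, + strand: CATGacctttactgtgttagc
*Slc11a2*, 3′ UTR, chr15:100393405-100393425, − strand: CATGaggagctgacttaaaag
*Slc11a2*, coding sequence, chr15:100397709-100397729, − strand: CATGtggcactctatgtggtg
*Slc40a1*, chr1:45908276-45908296, − strand: CATGcattgctgtgagcactt
*Slc39a14*, chr14:70303504-70303524, − strand: CATGtgaactgtaaatgtttt
*Slc30a1*, site 16, chr1:191910065-191910085, + strand: CATGataaaaattagggggat
*Slc30a1*, last CATG, chr1:191913137-191913157, + strand: CATGaggctttatggattgtt
*Ireb2*, chr9:54912125-54912145, + strand: CATGatgagaaaaactgacat

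The members also differ in the IRE letters that their transcripts hold. A search for a C, 5 bases, CAGTG, 1 further base and then 5 bases that pair with the 5 before CAGTG found 7 matches in 4 members and none in the other members. All 5 pairs were required, so a hairpin with a bulge or an unpaired base would be missed. A member without a match, such as *Slc11a2*, may therefore still hold an IRE. *Fth1*, *Ftl1* and *Slc40a1* each held 1 in the 5′ UTR, and *Tfrc* held 4 in the 3′ UTR. Such a match was present in 368 of 21735 protein-coding genes (1.69%). Each is printed with 5 bases on either side of the 17-base match, to which the positions belong, and capitals mark the loop.

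*Fth1*, 5′ UTR, chr19:9982738-9982754: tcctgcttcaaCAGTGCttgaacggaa
*Ftl1*, 5′ UTR, chr7:45459785-45459801: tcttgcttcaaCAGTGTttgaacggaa
*Slc40a1*, 5′ UTR, chr1:45925471-45925487: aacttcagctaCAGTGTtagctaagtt
*Tfrc*, 3′ UTR, chr16:32631225-32631241: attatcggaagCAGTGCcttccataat
*Tfrc*, 3′ UTR, chr16:32631604-32631620: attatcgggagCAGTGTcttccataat
*Tfrc*, 3′ UTR, chr16:32631669-32631685: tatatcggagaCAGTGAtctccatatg
*Tfrc*, 3′ UTR, chr16:32631716-32631732: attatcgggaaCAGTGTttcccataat

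In the GC-2spd (ts) library *Fth1* and *Mt2*, which store iron and zinc, were called lower, and *Slc39a14*, a metal importer, was called higher. The other 7 members were not called, among them *Ftl1* and *Tfrc*, whose differences were larger than counting error and below 2-fold. A gene was called when the Audic-Claverie test of its copies gave a false discovery rate of at most 0.001 over all 14283 genes and its TPM differed at least 2-fold. Over all genes, 11.8% were called as higher and 7.93% as lower in GC-2spd (ts), 19.8% in all, and among the 7253 genes with at least 100 tags over both libraries 16.4% were called higher and 8.66% lower. The 1 higher and 2 lower of 10 members are read against those shares. The median log2 ratio of the members, with 0.5 tags added to both counts, was −0.77, and that of all genes was 0.13. The member median takes in *Mt1* at −1.17, whose mRNA could not be measured, and *Slc40a1* at −2.22, from 2 copies and none. The members together took 0.568% of the clean tags of GC-1spg and 0.261% of those of GC-2spd (ts). *Fth1*, *Mt2* and *Ftl1* held most of these copies, so the total does not describe the other members. Scaling by TMM (trimmed mean of M-values) in place of the clean tag total moved the median log2 ratio of the 11385 genes listed in both libraries by −0.18 and turned the split of the calls over all genes from 1690 higher and 1132 lower to 1287 higher and 1453 lower. The TMM value of a member is given below wherever it changes a call or a direction.

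**Figure D1:**
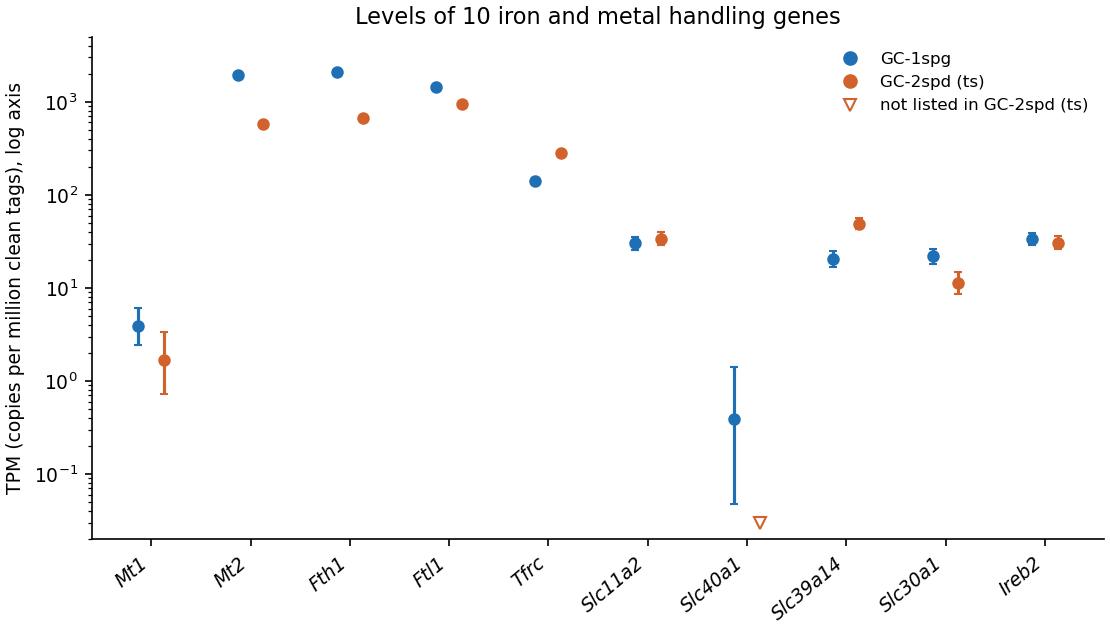
Level of each gene in TPM (log axis) in the GC-1spg (blue) and GC-2spd (ts) (orange) libraries, 1 library each, with exact 95% Poisson intervals as bars. *Mt2*, *Fth1* and *Ftl1* sat between 582 and 2068 TPM, *Tfrc* at 140 and 280 TPM, and the remaining members below 50 TPM. The open triangle, drawn at the foot of the axis, marks *Slc40a1*, which was not listed in GC-2spd (ts).

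*Fth1* encodes the ferritin heavy chain, which oxidises iron for storage (chr19:9980598-9985098, + strand). It had 10487 copies in GC-1spg against 3162 in GC-2spd (ts), or 2068 TPM (2028 to 2108) and 669 TPM (646 to 693). Its level fell 3.09-fold, with a log2 ratio of −1.63 (−1.69 to −1.57), and its rank among all genes went from 26 to 118. 4 tags with at least 100 copies over both libraries gave the same direction at different sizes. The tag at the last CATG of the 3′ UTR had 5107 and 1354 copies (log2 ratio −1.81, −1.90 to −1.73). The tag starting 4 bases before it, of which 17 bases are shared, had 4666 and 1586 copies (−1.46, −1.54 to −1.37). The tags in the coding sequence had 368 and 115 copies (−1.58, −1.89 to −1.27) at site 4 and 140 and 65 copies (−1.01, −1.45 to −0.57) at site 3, counting CATG sites from the 3′ end. Among the exact copies of the 2 last sites, the share of the upstream site was 47.7% (46.7 to 48.7) in GC-1spg against 53.9% (52.1 to 55.8) in GC-2spd (ts), and these intervals do not overlap. Both sites lie in the same annotated transcripts, so this share does not tell forms of the *Fth1* transcript apart.

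*Ftl1* encodes the ferritin light chain, which helps the iron core form (chr7:45457944-45459884, − strand). It had 7325 copies in GC-1spg against 4495 in GC-2spd (ts), or 1444 TPM (1411 to 1478) and 951 TPM (923 to 979). The log2 ratio was −0.60 (−0.66 to −0.55). The adjusted p of the Audic-Claverie test was 9.63e-109, and the difference stayed below the 2-fold threshold, so *Ftl1* was not called. Its tags also occur in pseudogenes, whose transcripts were set aside, so copies from them cannot be told apart. The main tag, in the coding sequence and found in 12 pseudogenes, held 7056 and 4311 copies, with a log2 ratio of −0.61 (−0.66 to −0.55). A minor tag of the coding sequence, found in 2 pseudogenes, had 86 and 80 copies, with a log2 ratio of −0.0026 (−0.46 to 0.45). The intervals of these tags do not overlap, so the lower level of *Ftl1* rests on the main tag. A further sense tag with 496 and 337 copies was not counted because it also matches *Gm10252* and *Gm47428* in antisense.

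The balance between the ferritin chains differed between the libraries. Heavy chain tags made up 58.9% (58.1 to 59.6) of the 17812 ferritin copies in GC-1spg against 41.3% (40.2 to 42.4) of the 7657 copies in GC-2spd (ts), and the intervals do not overlap. Both chains together stood at 3512 and 1620 TPM, a log2 ratio of −1.12 (−1.16 to −1.08). From the last CATG of each transcript alone, which removes the upstream *Fth1* tag, the heavy chain share was 44.1% and 26.0%. The level of the share therefore depends on which tags are counted. Its drop was present both ways, but both counts rest on the same main *Ftl1* tag and are not separate checks. With pseudogenes kept in the reference, *Ftl1* had no copies and the share could not be taken.

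*Mt2* encodes metallothionein 2, which binds zinc and copper (chr8:94172664-94173568, + strand). It had 9738 copies in GC-1spg against 2750 in GC-2spd (ts), or 1920 TPM (1882 to 1958) and 582 TPM (560 to 604). The level fell 3.30-fold, the log2 ratio was −1.72 (−1.78 to −1.66), and the rank went from 33 to 146. A single tag in exon 3, in the 3′ UTR, held 9644 and 2741 of these copies, or 99.0% and 99.7%, and it matched no pseudogene and no other gene.

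*Mt1*, the neighbouring metallothionein gene (chr8:94179082-94180327, + strand), could not be measured as an mRNA. Its spliced reference mRNAs, of 549 and 633 bases, hold no CATG, so *Nla*III leaves no tag on them. Its copies, 20 in GC-1spg against 8 in GC-2spd (ts), came from a site of the unspliced 1085-base transcript, which lies in intron 1 of the spliced 549-base mRNA. These copies amount to 3.94 TPM (2.41 to 6.09) and 1.69 TPM (0.731 to 3.33). The log2 ratio of −1.22 (−2.61 to 0.02) was not called, and the interval reaches 0. The low level of *Mt1* beside *Mt2*, with 0.205% and 0.290% of the copies of the pair, is therefore no comparison of the 2 mRNAs.

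**Figure D2:**
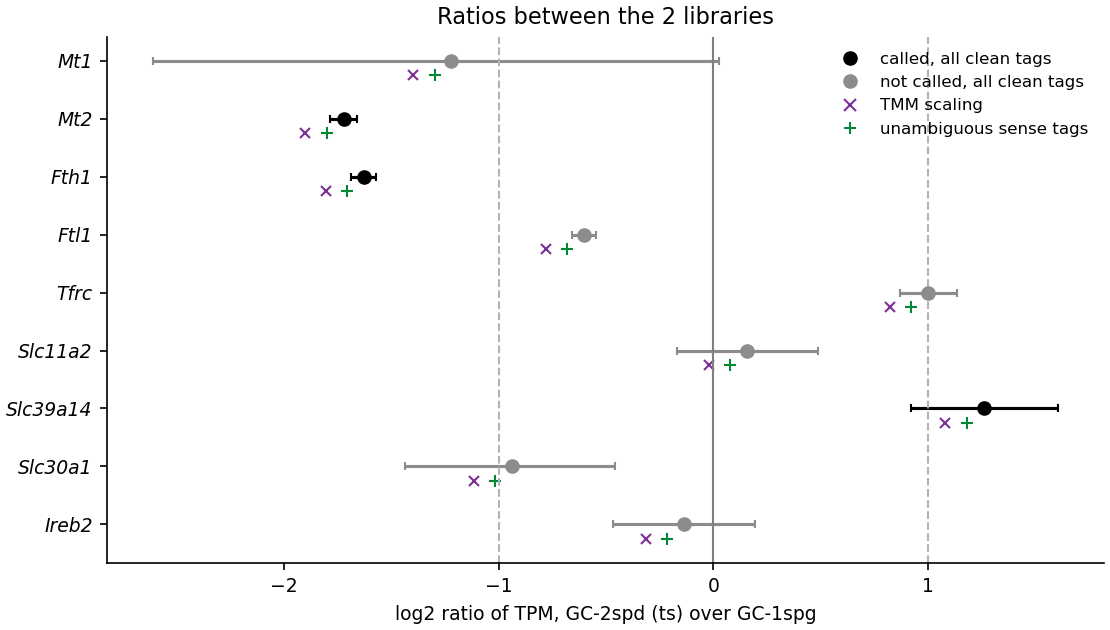
Log2 ratio of TPM, GC-2spd (ts) over GC-1spg, for the 9 members listed in both libraries, with exact 95% intervals as bars (black, called; grey, not called). Crosses show TMM scaling, plus signs show scaling to unambiguous sense tags, and dashed lines mark 2-fold. *Fth1* at −1.63 and *Mt2* at −1.72 lay beyond the lower line under all 3 scalings, *Slc39a14* at 1.26 lay beyond the upper line, and *Tfrc* and *Slc30a1* lay at the lines.

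*Tfrc* encodes the transferrin receptor, which carries transferrin-bound iron into the cell (chr16:32608920-32632794, + strand). It had 711 copies in GC-1spg against 1325 in GC-2spd (ts), or 140 TPM (130 to 151) and 280 TPM (265 to 296), and its rank moved from 870 to 416. The level was 1.9997-fold higher, with a log2 ratio of 0.9998 (0.87 to 1.13), which falls just short of the threshold, so *Tfrc* was not called. From the last CATG of each transcript alone the log2 ratio was 1.03 and *Tfrc* was called, and under TMM it was 0.82. Of its 22 distinct tags, 21 were spread over the 4890-base transcript and 1, with 0 and 3 copies, lay in a retained-intron transcript, and 81.3% (78.2 to 84.1) and 82.7% (80.6 to 84.7) of the copies lay at its last CATG, in exon 19. Tags of the 3′ UTR beyond the last of the 4 IRE matches held 635 and 1183 copies, with a log2 ratio of 0.9994 (0.86 to 1.14). Those of the 3′ UTR before the first match held 55 and 106 copies (1.05, 0.57 to 1.55), and those of the coding sequence held 21 and 33 (0.75, −0.08 to 1.62). These 3 stretches did not differ beyond their intervals.

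*Slc39a14* encodes ZIP14, an importer of zinc, manganese and iron not bound to transferrin (chr14:70303469-70351425, − strand). It had 104 copies in GC-1spg against 232 in GC-2spd (ts), or 20.5 TPM (16.8 to 24.8) and 49.1 TPM (43.0 to 55.8). It was 2.39-fold higher, with a log2 ratio of 1.26 (0.92 to 1.61) and 1.08 under TMM, and was called. The tag at the last CATG of the 4926-base transcript, in exon 10 and the 3′ UTR, held 91 and 219 copies. That tag is in no other annotated transcript of the gene, and counting only the longest transcript left 0 copies in both libraries.

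*Slc11a2* encodes DMT1, which moves ferrous iron out of the gut lumen or the endosome (chr15:100387898-100425072, − strand). It had 154 copies in GC-1spg against 160 in GC-2spd (ts), or 30.4 TPM (25.8 to 35.6) and 33.8 TPM (28.8 to 39.5). The log2 ratio was 0.16 (−0.17 to 0.49), and −0.022 under TMM, so no direction was resolved. The gene has alternative 3′ ends, and the 3′ UTR of the 4415-base transcript gave 57.1% (48.9 to 65.1) of its copies in GC-1spg against 43.1% (35.3 to 51.2) in GC-2spd (ts). These intervals overlap, and the GC-1spg share includes 9 copies of a tag with 1 mismatch that was not listed in GC-2spd (ts). The 3′ UTR of the 3025-base transcript gave 3 and 4 copies. The main 3′ UTR tag had 72 and 67 copies (log2 ratio −0.0021, −0.50 to 0.50), and the main coding sequence tag, shared by both forms, had 45 and 74 (0.82, 0.27 to 1.39). The intervals of those tags overlap.

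*Slc40a1* encodes ferroportin, the iron exporter (chr1:45908068-45926523, − strand), and was all but absent. It had 2 copies in GC-1spg, or 0.394 TPM (0.0478 to 1.42), all at 1 tag of the 3′ UTR, and was not listed in GC-2spd (ts). A single unlisted copy of that tag would allow up to 1.004 TPM in GC-2spd (ts), so no fold is given. Of the 21 CATG sites of the 3370-base transcript, the printed site alone was seen.

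*Slc30a1* encodes ZNT1, which exports zinc across the plasma membrane (chr1:191906767-191913247, + strand). It had 111 copies in GC-1spg against 54 in GC-2spd (ts), or 21.9 TPM (18.0 to 26.4) and 11.4 TPM (8.58 to 14.9). The log2 ratio of −0.94 (−1.43 to −0.46) lay just inside 2-fold, with an adjusted p of 1.95e-04 by the Audic-Claverie test, so *Slc30a1* was not called. It was called under TMM (−1.12), under scaling to unambiguous sense tags (−1.02) and with antisense tags added (−1.05). Its 3′ UTR in exon 2 gave a pair of main tags far apart. The tag at site 16, 3183 bases from the 3′ end of the 5244-base transcript, had 67 and 29 copies, and the tag at the last CATG, 111 bases from the end, had 41 and 25. The upstream site held 60.4% (50.6 to 69.5) and 53.7% (39.6 to 67.4) of the copies, which did not differ beyond the intervals.

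*Ireb2* encodes an iron regulatory protein that binds IREs (chr9:54863789-54912530, + strand). It had 171 copies in GC-1spg against 145 in GC-2spd (ts), or 33.7 TPM (28.8 to 39.2) and 30.7 TPM (25.9 to 36.1). The log2 ratio was −0.14 (−0.47 to 0.19), was not called, and was 0.0060 with antisense tags added. The tag at the last CATG of the 3′ UTR held 130 and 100 copies, and a tag at site 16 held 26 and 28. A tag in a retained intron with 1205 and 1196 copies was left out because it occurs in 449 other genes.

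**Figure D3:**
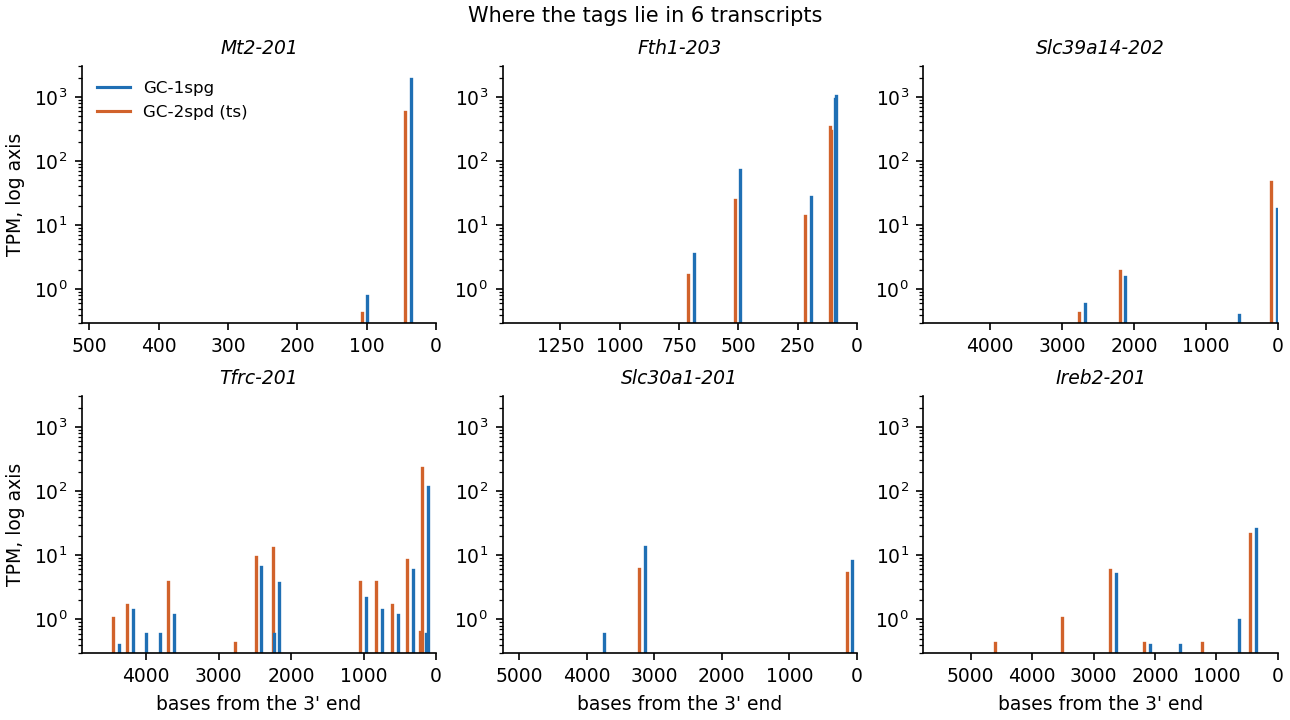
Tags of 6 members by the distance of their CATG from the 3′ end of the transcript named above each panel (x axis, bases, with the 3′ end at the right) and their level in TPM (y axis, log), with the GC-1spg (blue) and GC-2spd (ts) (orange) bars of a site drawn side by side. The tallest bars of *Mt2*, *Fth1* and *Tfrc* stand within 155 bases of the 3′ end, those of *Slc39a14* stand at 56 bases, and *Slc30a1* has its tallest bars 3183 bases from the end.

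The order of the levels, which tag counts allow to be compared between genes of any length because each captured cDNA gives a single tag, changed between the libraries. In GC-1spg it ran *Fth1*, *Mt2*, *Ftl1*, *Tfrc*, *Ireb2*, *Slc11a2*, *Slc30a1*, *Slc39a14*, *Mt1* and *Slc40a1*. From *Ireb2* to *Slc39a14* the intervals of each pair of neighbours overlapped, and those of the other neighbours did not. In GC-2spd (ts) it ran *Ftl1*, *Fth1*, *Mt2*, *Tfrc*, *Slc39a14*, *Slc11a2*, *Ireb2*, *Slc30a1* and *Mt1*, with overlap between *Slc11a2* and *Ireb2*. From the last CATG of each transcript alone, *Fth1* came after *Mt2* and *Ftl1* in both libraries, with 5716 copies against 9734 and 7240 in GC-1spg, and 1545 against 2748 and 4406 in GC-2spd (ts). *Mt1* stands low in both orders through its missing site.

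The metal response element was searched in the promoters of the members, from 250 bases before to 50 after the start in RefSeq (GRCm38.p6), which held 7 of the 10: *Mt1*, *Mt2*, *Fth1*, *Ftl1*, *Tfrc*, *Slc30a1* and *Ireb2*. The letters TGCACNC and TGCGCNC were sought on both strands, where matches can overlap. *Mt2* held 4 matches, *Mt1* 3, *Slc30a1* 2 and *Tfrc* 2 in the upstream of its 2 promoters, while the promoters of *Fth1*, *Ftl1* and *Ireb2* held none. Of 32851 promoters, 25.7% held at least 1 match and 0.517% held 4 or more. The stretches that hold the matches before the start are printed for all 4 genes, on the + strand with the matches in capitals.

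*Mt2*, chr8:94172385-94172584, bases −233 to −34: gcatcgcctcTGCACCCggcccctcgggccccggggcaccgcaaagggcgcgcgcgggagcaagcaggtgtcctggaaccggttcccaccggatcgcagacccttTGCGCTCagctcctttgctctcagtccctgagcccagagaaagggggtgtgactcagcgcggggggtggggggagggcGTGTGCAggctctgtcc
*Mt1*, chr8:94179056-94179082, bases −33 to −7: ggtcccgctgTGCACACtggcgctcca
*Slc30a1*, chr1:191906728-191906754, bases −53 to −27: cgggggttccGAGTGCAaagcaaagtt
*Tfrc*, chr16:32608833-32608862, bases −63 to −34, with overlapping matches: acgcactggcTGCGCGCGCAgttcgcctcc

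The other genes of the pathways were taken from a list of 103, of which 101 were in the annotation and 82 were listed in either library. Of these 82, 13 were called higher and 9 lower, against 11.8% and 7.93% of all genes, and their median log2 ratio was 0.17. Among the regulators of ferritin and of the IRE-binding proteins, 1 of 6 was called, against 19.8% of all genes. *Fbxl5*, the iron-sensing ubiquitin ligase subunit that marks the *Ireb2* protein for degradation, was called lower with 425 and 124 copies (log2 ratio −1.68, −1.98 to −1.38). *Aco1*, the other IRE-binding protein, had 21 and 15 copies and was not called. *Ncoa4*, the receptor that brings ferritin to the lysosome, had 261 and 150 copies (−0.70, −0.997 to −0.40) and was not called, and with pseudogenes kept in the reference 8 and 6 copies were left.

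Of the 17 annotated genes of iron uptake, reduction and release, 8 were listed. Of these, 3 were called lower and none higher, against 7.93% and 11.8% of all genes. *Trf*, which encodes transferrin, the ligand of *Tfrc*, had 445 copies (87.7 TPM) in GC-1spg. In the GC-2spd (ts) library it was not listed, being at least 65.9-fold lower against the limit of 1.33 TPM that a single unlisted copy of each of its tags would allow. *Cp*, the ferroxidase ceruloplasmin, had 400 and 2 copies, or 78.9 and 0.423 TPM (log2 ratio −7.54, −10.59 to −5.68). *Steap1*, a member of the metalloreductase family, had 131 and 51 copies (−1.26, −1.76 to −0.78). *Hamp*, the iron hormone hepcidin, was listed in neither library. These lower levels stood beside *Slc39a14*, called higher, and *Tfrc*, at 140 and 280 TPM and not called, and beside the Sertoli cell markers *Wt1*, with 620 copies in GC-1spg against none listed in GC-2spd (ts), and *Sox9* with 29 and 46, whose part in them was not tested.

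Of 22 listed genes of mitochondrial iron and iron-sulphur clusters, 7 were called higher and 0 lower, against 11.8% and 7.93% of all genes. No group was tested as a set, and the calls of *Fdx1* and *Cisd2* were lost in the longest transcript. The electron carrier ferredoxin *Fdx1* had 155 and 475 copies (log2 ratio 1.72), and *Fdxr*, which reduces it, was not listed in GC-1spg but had 65 copies (13.8 TPM) in GC-2spd (ts), which is at least 11.1-fold higher. *Cisd2* had 352 and 960 copies (1.55) and *Cisd3* had 69 and 234 (1.86), both being iron-sulphur proteins. The assembly factors *Glrx5* with 36 and 98 copies (1.55) and *Lyrm4* with 10 and 50 (2.42) were also higher. *Nfu1*, a cluster carrier, had 112 and 321 copies (1.62), but nearly all of them also occur in pseudogenes: with pseudogenes kept in the reference 5 and 3 copies were left, which give no direction.

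Of 16 listed haem genes, 2 were called higher and 3 lower, against 11.8% and 7.93% of all genes. The synthesis enzyme *Ppox* had 51 and 254 copies (log2 ratio 2.42), and *Blvra*, which reduces biliverdin, was not listed in GC-1spg but had 161 copies (34.1 TPM) in GC-2spd (ts), which is at least 27.4-fold higher. *Alad*, an early enzyme of synthesis, had 195 and 77 copies (−1.24), the haem transporter *Slc48a1* 800 and 256 (−1.54, and −0.78 and not called at the site nearest the 3′ end), and the porphyrin exporter *Abcg2* 218 and 51 (−1.99). *Hmox1*, the haem oxygenase that frees iron from haem, had 236 and 268 copies (0.29, 0.03 to 0.54) and was not called.

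Of 18 listed genes of zinc and metallothionein, 3 were called higher and 2 lower, against 11.8% and 7.93% of all genes. *Mtf1*, the factor that acts on the *Mt2* promoter, had 140 and 159 copies (log2 ratio 0.29, −0.05 to 0.62) and was not called. The zinc importers split: *Slc39a10* with 645 and 86 copies (−2.81) and *Slc39a8* with 41 and 9 (−2.09) were lower, and *Slc39a6* with 71 and 282 (2.09) was higher. *Slc39a13*, which exports zinc from intracellular stores, was higher with 106 and 231 copies (1.23), and *Slc30a5*, which loads zinc into the secretory pathway, had 218 and 408 (1.01), just past the threshold, and was not called under TMM (0.83), with unambiguous sense totals (0.93), with antisense tags added (0.96) or in the longest transcript (0 and 2 copies). Of 12 listed copper and manganese genes 1 was called, against 19.8% of all genes. This was *Commd1*, with 332 and 691 copies (1.16, and 0.98 and not called under TMM). Under TMM *Sco1*, a copper chaperone named here after its values were seen, was called lower instead (67 and 32 copies, −0.96, and −1.14 under TMM).

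**Figure D4:**
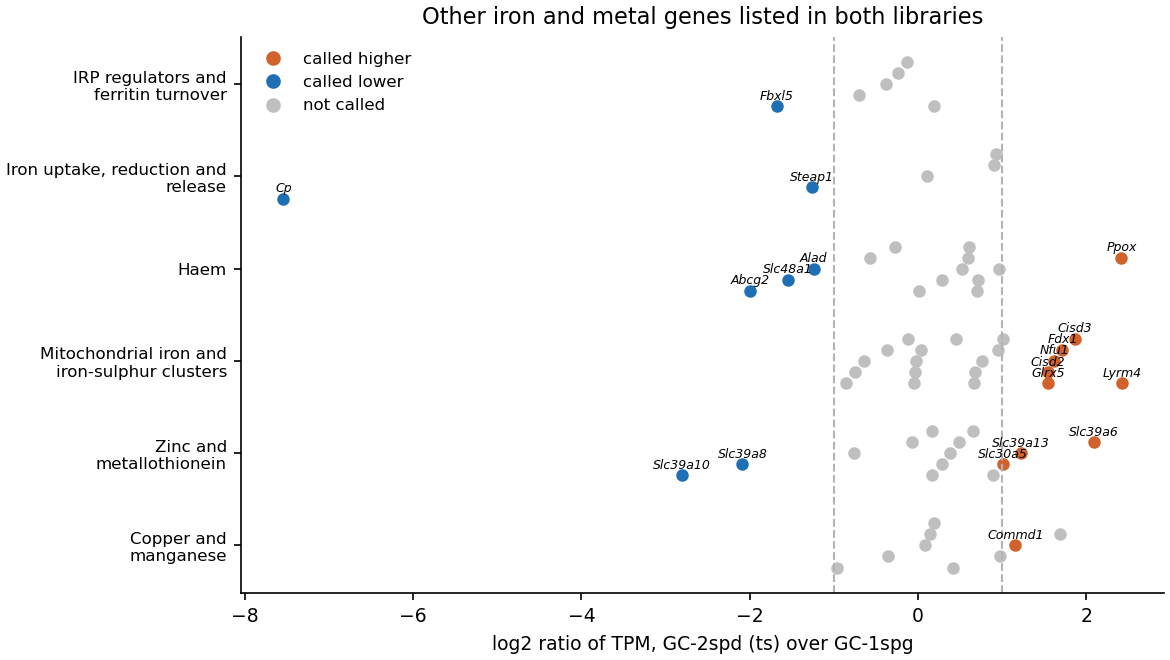
Log2 ratio of TPM, GC-2spd (ts) over GC-1spg (x axis), of the listed pathway genes that had tags in both libraries, by group (y axis, spread within a group for legibility only); orange marks genes called higher, blue those called lower, and grey those not called, and dashed lines mark 2-fold. *Cp* stood farthest left at −7.54, and 6 of the 7 higher mitochondrial genes lay between 1.55 and 2.42; *Trf*, *Blvra* and *Fdxr*, listed in a single library, are not drawn.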

How the data were processed

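For each library the authors deposited the clean tags with their copy number (raw counts) and the same values as TPM, having removed tags with adaptor sequence, of low quality or seen only once. The deposited TPM equalled copies over the library total within rounding and was used only to check this. The authors matched tags to UniGene clusters, and their matching program is not given in the sources. The counts were matched here to all CATG tags, on both strands, of the GENCODE M21 transcripts (GRCm38), exact matches first and then 1 mismatch. Sense tags whose best matches belonged to 1 gene were summed, which was 65.7% and 69.3% of the copies. Pseudogene transcripts were left out by GENCODE type or RefSeq biotype. The RefSeq biotype was added after *Ftl1* was seen to lose every tag to *Ftl1-ps1*.

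The two-sided Audic-Claverie test was adjusted by Benjamini-Hochberg over 14283 genes, and a gene was called at a false discovery rate of at most 0.001 and at least a 2-fold difference in TPM, with an unlisted gene set to 0.01 TPM. edgeR's quasi-likelihood test could not be fitted with 1 library per line. Intervals were Clopper-Pearson (ratios, shares) or Poisson (levels) at 95%, and a gene unlisted in a library was bounded by the one-sided Poisson limit for 1 copy of each of its tags. PCR copies are counted as tags. The calling was run on simulated counts with known changes. Limits on recovery and false calls were set only for counts without spread between cultures, so this run does not bear on such spread.

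The members and lists were chosen with earlier results of these data known. Named were all members, *Mtf1*, *Aco1*, *Fbxl5*, *Ncoa4*, *Hamp*, *Trf*, *Hmox1*, and listed pathway genes that were called with at least 50 tags. 1 pathway gene and 1 tag are not reported here, and the gene is not in the counts of its list. Alternatives were no mismatch, the last CATG only, the longest transcript, pseudogenes kept, sense matches preferred, antisense tags added, TMM, unambiguous sense totals, at least 10 tags, 0.5 tags added, an exact binomial test and the exact test of edgeR at an assumed biological coefficient of variation (BCV) of 0.1, 0.2 or 0.4. GENCODE type alone was added after seeing the data. R 4.3.3, edgeR 4.0.16, Python 3.11.15, numpy 2.4.6, scipy 1.17.1 and matplotlib 3.10.9 were used.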

Additional observations from a re-analysis of the deposited data

Results flagged for a closer look

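Antisense tags, which enter no level above, were listed for 7 members in both libraries at more than the 3 copies that a count of 0 allows. *Fth1* had 1089 antisense copies in GC-1spg against 235 in GC-2spd (ts), *Mt2* had 323 and 47, and *Ftl1* had 82 and 22. *Slc30a1* had 31 and 10. *Tfrc* had 168 and 302, *Ireb2* had 16 and 30, and *Slc11a2* had 27 and 25. The log2 ratios of the antisense copies were −2.11 (−2.32 to −1.91) for *Fth1*, −2.68 (−3.15 to −2.23) for *Mt2*, −1.80 (−2.55 to −1.10) for *Ftl1* and 0.95 (0.67 to 1.23) for *Tfrc*. The antisense share of the counted copies of the gene ranged from 0.487% for *Ftl1* in GC-2spd (ts) to 21.8% for *Slc30a1* in GC-1spg. Antisense tags that also match another gene were not counted. For *Ftl1* those held more copies than the counted ones, so its share depends on this filter. The share differed beyond its interval between the libraries for *Fth1*, at 9.41% (8.88 to 9.95) and 6.92% (6.09 to 7.82), for *Mt2*, at 3.21% (2.87 to 3.57) and 1.68% (1.24 to 2.23), and for *Ftl1*, at 1.11% (0.881 to 1.37) and 0.487% (0.305 to 0.736).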

How the results depend on the processing

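The members were compared with their main result in 145 combinations of member and setting. Of these, 134 kept both direction and side of the thresholds, 5 lost a call, 4 gained a call and 2 changed sign. The minimum tag count, the exact binomial test and the exact test of edgeR reused the main log2 ratio. Direction could not change under these settings, and only the call was tested again. Members not called in the main setting had no call to lose, so the 134 do not measure how stable the calls were. The 5 lost calls in this tally all came with edgeR's exact test under an assumed spread between cultures, which these libraries cannot measure. Settings that left a member with no copies or too few tags to be tested are not in the tally. Among them is the longest transcript for *Slc39a14*, where its call was lost as well. With a BCV of 0.2 or 0.4, 507 or 106 genes were called higher and 489 or 136 lower over all genes, 0 or 0 members higher and 1 or 0 lower, and 5 or 2 pathway genes higher and 4 or 2 lower. *Mt2* was the member still called at 0.2, where *Fth1* had an adjusted p of 0.00151 in edgeR's exact test. The site nearest the 3′ end gave 2 members called higher, and the longest transcript gave 0, since it left *Slc39a14* with no copies, and 8 pathway genes higher. The heavy chain share of ferritin in GC-1spg and GC-2spd (ts) was 44.1% and 26.0% at the site nearest the 3′ end, 57.3% and 39.5% with sense matches preferred, and 61.0% and 42.9% with antisense tags added. With pseudogenes kept, or set aside by GENCODE type alone, *Ftl1* had no copies and no share. The sign changed for *Slc11a2* (−0.022 under TMM), *Ireb2* (0.0060 with antisense tags) and *Nfu1* (−0.64 with pseudogenes kept, and −5.30 in the longest transcript, from 2 copies and none with 0.01 TPM set for the latter). *Commd1* was also not called at the site nearest the 3′ end (25 and 32 copies), nor *Fdx1* (3 and 15), *Cisd2* (2 and 3) and *Slc30a5* (0 and 2) in the longest transcript, which left *Ncoa4* 2 copies and none. No paired analysis was possible because each line has 1 library. Depth limits *Slc40a1*, whose 2 copies could not resolve a 2-fold difference, while *Mt1* is limited by its missing CATG site.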
